A study of Lobosphaera incisa with 32 samples.

Results

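In the green microalga Lobosphaera incisa, 150 of 16722 genes were grouped by a profile that was high after 12 h without nitrogen (N) and near the starting level at 72 h. The members were chosen by their measured values, the pooled FPKM (fragment counts scaled for transcript length and for sequencing depth) of 4 conditions. A gene was kept where it had at least 10 FPKM at 12 h and where both 72 h values lay within 1 log2 unit of the Control after 1 FPKM was added to each value, a range called the band from here on. The kept genes were ordered by a score, the log2 ratio of the 12 h value to the highest of the other 3 values, and the 150 highest scores were taken. Since the rule used all 4 conditions, every level and ratio given here is a description, and none carries a test.

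The strain was SAG 2468, grown in axenic culture with added CO2. The Control was the replete logarithmic culture at 0 h in normal light (NL, 75 µmol photons m-2 s-1). Cells without N were harvested after 12 h in high light (HL, 150 µmol photons m-2 s-1) and after 72 h in NL or in HL. Each condition had 8 samples, made of 2 biological replicates with 4 technical replicates each, and the values used here are 1 pooled value per condition. The Control existed only at 0 h and the 12 h samples only under HL, so at 12 h the effects of N, of light and of time cannot be told apart. In these bulk samples a gene expressed in fewer cells and a gene with less RNA per cell cannot be told apart either.

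N removal stops the growth of green algae, and cells then take apart part of their chloroplast and store carbon as triacylglycerol in lipid droplets. L. incisa is known for droplets rich in arachidonic acid. In the related model alga Chlamydomonas reinhardtii, transporters and enzymes that gather other N sources are among the first genes to respond to N removal, and N removal is also the cue for gamete formation. A change of light by itself also alters the expression of photosynthesis and photoprotection genes. These points are general background. The tables used here do not pair gene IDs with names or products, so no member could be assigned to such a role, and the IDs of 4 members are printed. The study itself gives symbols for a few IDs, none of them a member.

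The pooled expected counts of all genes came to 148630272 in the Control, 285924034 at 12 h, 329774484 at 72 h under NL and 214719396 at 72 h under HL. The 150 genes took 1.79% of these counts at 12 h and 0.315% in the Control. The median member had 13058 counts at 12 h and 958 in the Control, and the lowest had 498 at 12 h. No member had fewer than 100 counts at 12 h. In the Control 14 members did, at 72 h under NL 12 and at 72 h under HL 17. RSEM, the quantification program, attached a 95% interval to every FPKM, which reflects how reads were counted and assigned. The spread between cultures is not contained in the pooled values, so a difference beyond these intervals is a difference between pools.

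Of the 16722 genes, 9178 had at least 10 FPKM at 12 h, and 6377 of these (69.5%) were within the band at 72 h under both lights. Among the 6377 genes 3330 had a score above 0 and 610 a score of at least 1. The scores of the members ran between 2.01 and 5.20 with a median of 2.28. Most were close to the lower end, with quartiles of 2.13 and 2.63, while 32 members had a score between 2.5 and 3 and 18 a score of at least 3. The last member had a score of 2.01, with 2.39 FPKM in the Control, 12.6 at 12 h, 1.60 at 72 h under NL and 0.77 at 72 h under HL. The first gene left out also had a score of 2.01, with 2.09, 11.4, 1.13 and 0.82 FPKM in the same order. The limit therefore ran through a group of genes with nearly equal scores.

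Most members had low levels outside the 12 h time point, with 24 of the 150 at 10 FPKM or more in the Control. Their median was 2.99 FPKM in the Control, 22.6 at 12 h, 2.27 at 72 h under NL and 1.87 at 72 h under HL. Over all 9178 genes with at least 10 FPKM at 12 h the medians were 21.7, 27.4, 20.8 and 21.9 FPKM in the same order. At 12 h the median member was thus near the median of these genes, while in the other conditions it was far below. The central members, between the lower and the upper quartile, had 13.7 to 43.3 FPKM at 12 h, against 2.00 to 7.30 FPKM in the Control. Together the 150 genes made up 2.32% of all transcripts by TPM (a measure of each transcript's share of all transcripts) at 12 h and 0.372% in the Control, 0.404% at 72 h under NL and 0.363% at 72 h under HL.

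**Figure D1:**
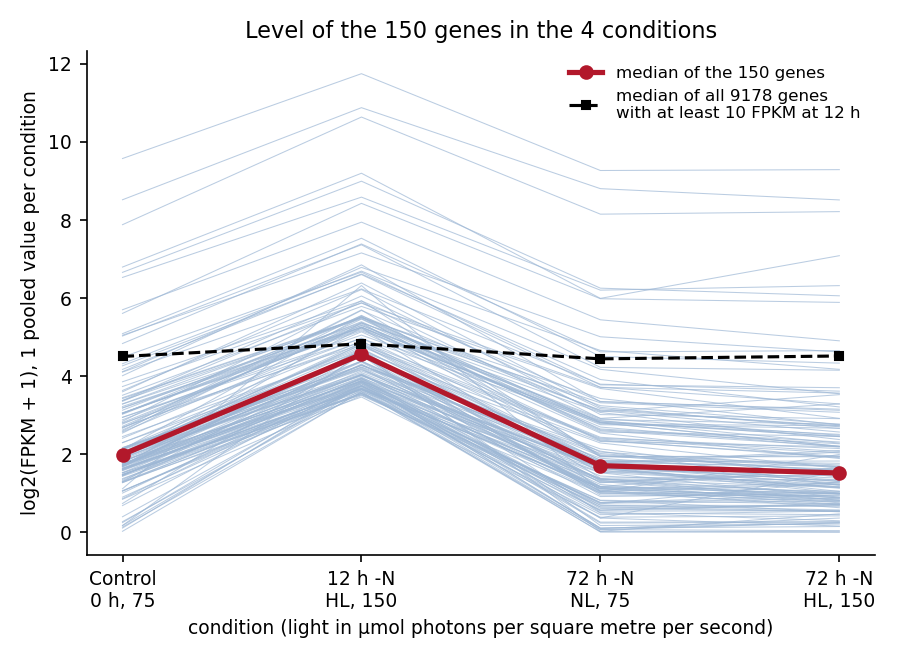
Each thin line is 1 of the 150 genes, plotted as log2(FPKM + 1) on the vertical axis in the 4 conditions on the horizontal axis, with 1 pooled value per condition. The red line is the median of the members, with 2.99, 22.6, 2.27 and 1.87 FPKM, and the dashed line the median of all 9178 genes with at least 10 FPKM at 12 h, which changed far less.

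The log2 ratio of 12 h to the Control had a median of 2.37 over the members (2.28 to 2.44 from the RSEM bounds of each gene), where all 14204 genes with at least 1 FPKM in a condition had a median of 0.20. Median-of-ratios scaling lowered the log2 ratios of 12 h to the Control by 0.20 before 1 FPKM was added, and the median of the members was then 2.18. All 150 members were at least 2-fold higher at 12 h than in the Control, against 17.0% of the 14043 genes that reached 1 FPKM in either condition. All were also at least 2-fold higher at 12 h than at 72 h under HL, where 19.7% of genes were, and than at 72 h under NL, where 21.7% were. The rule fixes these counts and nothing is read from them. The 12 h interval lay above the intervals of the other 3 conditions in all 150 members, against 42.8% of the genes with at least 10 FPKM at 12 h. The narrowest gap was 3.16-fold, from the upper bound of the highest other condition to the lower bound at 12 h. From its centre to its edge the interval spanned 1.71% of the FPKM at 12 h in the median member, against 6.36% in the Control.

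The gene g7326 had the highest score. Its FPKM was 1.17 (95% interval of RSEM 1.06 to 1.28) in the Control, 79.0 (78.3 to 79.7) at 12 h, 1.08 (1.01 to 1.16) at 72 h under NL and 0.80 (0.727 to 0.883) at 72 h under HL. The value at 12 h stood far above the other 3, which lay close together, and the 12 h to Control ratio was 67.5, or 5.20 on the log2 scale with 1 FPKM added. The gene has 1 transcript with a length of 2361 bases, and its count was 53727 at 12 h and 414 in the Control.

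The gene g6983 came next with a score of 4.13. Its FPKM was 0.13 (0.0965 to 0.176) in the Control, 23.3 (22.9 to 23.7) at 12 h, 0.02 (0.0143 to 0.0372) at 72 h under NL and 0.39 (0.338 to 0.453) at 72 h under HL. In the other conditions it rested on few fragments, 42 in the Control, 16 at 72 h under NL and 181 at 72 h under HL, against 14412 at 12 h. Within the low range the 72 h value under HL lay above that under NL with intervals that did not overlap.

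Both transcripts of g6983 contributed at 12 h. Its second transcript had 13.1 FPKM at 12 h and 0.13 in the Control, and it held 56.3% of the gene's TPM at 12 h and 100% in the other conditions. The first transcript, of 2170 bases, had 10.2 FPKM at 12 h with 6352 expected counts, and it was listed at 0 in the Control and at 72 h under both lights. The transcripts differ in length by few bases (2140 for the second), and in the Control their intervals overlapped, with upper bounds of 0.135 and 0.137 FPKM. How RSEM divided reads between them in those conditions is therefore uncertain.

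The members g15405 and g5045 stood lowest at 72 h relative to the Control when 1 FPKM was added and the larger ratio of both lights was taken. By plain FPKM 7 other members were lower than both. The FPKM of g5045 was 2.05 (1.93 to 2.19) in the Control, 14.2 (13.9 to 14.4) at 12 h, 0.62 (0.574 to 0.671) at 72 h under NL and 0.61 (0.557 to 0.675) at 72 h under HL. The FPKM of g15405 was 1.99 (1.83 to 2.16) in the Control, 13.5 (13.2 to 13.8) at 12 h, 0.57 (0.510 to 0.629) at 72 h under NL and 0.59 (0.516 to 0.666) at 72 h under HL. In both genes the 72 h values under the 2 lights overlapped and lay below the Control interval. Without an added FPKM their 72 h values under HL were 0.298 and 0.296 times the Control. With 1 FPKM added the log2 ratios under HL were -0.92 and -0.91, inside the band.

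**Figure D2:**
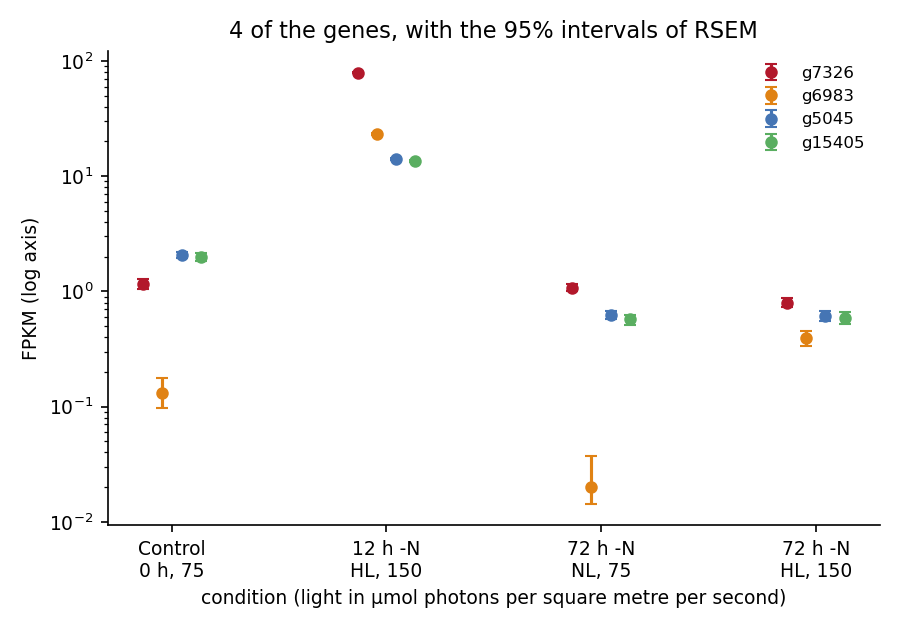
FPKM on a log axis for g7326, g6983, g5045 and g15405 in the 4 conditions, with 1 pooled value per condition and bars for the 95% intervals of RSEM, which cover counting and read assignment only. All 4 genes were highest at 12 h, from 13.5 FPKM in g15405 to 79.0 in g7326, and g6983 had its lowest value, 0.02 FPKM, at 72 h under NL.

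The members differed widely in level. In the Control 13 had less than 1 FPKM, 113 had 1 to 10 FPKM and 24 had at least 10 FPKM. The 13 lowest genes also had less than 1 FPKM at 72 h under both lights. At 12 h they had a median of 12.5 FPKM and a range of 10.4 to 23.3, against a median of 0.21 FPKM in the Control. Their counts were lower outside 12 h but not absent. They ran between 9.61 and 401 in the Control, 2.96 and 776 at 72 h under NL and 4.15 and 683 at 72 h under HL. At 12 h they ran between 596 and 33736. One of them was listed at 0.00 FPKM at 72 h under HL with 5 expected counts, a value rounded down and not an absence.

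The 113 genes of the middle class had a median of 19.9 FPKM at 12 h and 2.81 in the Control, with a median 12 h to Control ratio of 6.44. The 24 genes with at least 10 FPKM in the Control had a median of 128 FPKM at 12 h and 24.5 in the Control, with ratios between 4.19 and 7.56. In the lowest class the median ratio was 54.8, and since the rule asked for at least 10 FPKM at 12 h, a gene below 1 FPKM in the Control had to have a high ratio. The score adds 1 FPKM to every value and therefore understates the ratio of the lowest genes. The 24 genes of the highest class carried 78.1% of the TPM of all members at 12 h.

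A few abundant genes made up most of the signal. The most abundant member had 3436 FPKM (3428 to 3444) at 12 h and 761 (756 to 767) in the Control, and 615 and 625 FPKM at 72 h under NL and under HL. At 12 h it was the gene with the highest FPKM of all 16722, and the highest by TPM, while it ranked 143 in the Control, 112 at 72 h under NL and 117 at 72 h under HL. It is a short gene of 741 bases and its score of 2.17 placed it at rank 102 of the members. The second had 1879 FPKM at 12 h and 366 in the Control and ranked 10 of all genes at 12 h and 244 in the Control. The third had 1591 FPKM at 12 h and 235 in the Control, with ranks of 19 and 365. These 3 genes held 50.6% of the TPM of the members at 12 h, and the first of them 25.2%.

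The genes as strongly raised at 12 h as the members did not share one course afterwards. Of the genes with at least 10 FPKM at 12 h, 603 had a log2 ratio to the Control of at least 2.01, the lowest of a member. At 72 h 179 of them (29.7%) were within the band under both lights, the 150 members and 29 genes with a lower score. More than 1 log2 unit below the Control under both lights were 185 genes (30.7%), and more than 1 log2 unit above it under both lights were 115 genes (19.1%). The remaining 124 genes (20.6%) left the band in other ways, among them 62 that were below it under HL and within it under NL, and 35 that were above it under HL and within it under NL. The 185 genes below the band had a median of 42.8 FPKM at 12 h and 6.52 in the Control, and 1.41 and 1.39 FPKM at 72 h under NL and HL. By the definition of these sets the members lay between a group of genes that stayed high and a group that ended lower, so nothing is read from this order.

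**Figure D3:**
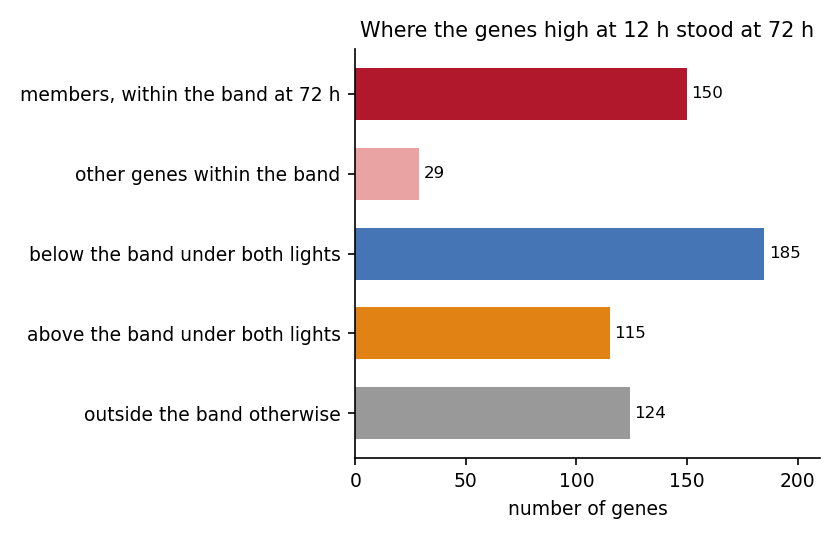
Bars give the number of genes, on the horizontal axis, among the 603 genes with at least 10 FPKM at 12 h and a log2 ratio of 12 h to the Control of at least 2.01, by their place at 72 h relative to the band of 1 log2 unit around the Control. The 150 members and 29 others stayed within the band, 185 were below it and 115 above it under both lights, and 124 left it otherwise.

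At 72 h most members lay below the Control within the band. The rule used these values, and its score, taken against the highest of the other 3 conditions, puts genes above the Control at 72 h lower in the ranking, so nothing is read from the counts. At 72 h under both lights 119 of the 150 (79.3%) were below the Control and 10 (6.67%) above it, where of all 6377 genes within the band 2710 (42.5%) were below and 2547 (39.9%) above. The median log2 ratio to the Control was -0.35 under NL (-0.45 to -0.23 from the RSEM bounds) and -0.62 under HL (-0.80 to -0.49). With TPM the median under NL was -0.17, and with a pseudocount of 5 FPKM the medians were -0.16 under NL and -0.28 under HL. Over the 6377 genes it was -0.02 under NL and -0.01 under HL. Under HL 94 members had a log2 ratio of -0.5 or less, where 15.2% of all genes within the band did, and 2 had 0.5 or more, where 14.5% did. The highest of the other 3 conditions was the Control in 120 members, 72 h under NL in 16 and 72 h under HL in 14.

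Without an added FPKM the distance below the Control was larger. The median ratio of 72 h to the Control was 0.533 under HL and 0.6995 under NL. Under HL 66 members had less than 0.5 times the Control, against 2.45% of the genes within the band, under NL 35 did, against 1.77%, and 28 did under both lights. These genes stayed within the band because 1 FPKM was added, which matters most at low FPKM. A few of them had at least 10 FPKM in the Control and lay close to the lower limit of the band. The other genes within the band mostly had higher FPKM than the members. The rule thus limits the shares of the background, and nothing is read from the contrast. The median member retained 8.40% of its 12 h level at 72 h under HL and 10.8% under NL, and it had 15.5% of that level in the Control.

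**Figure D4:**
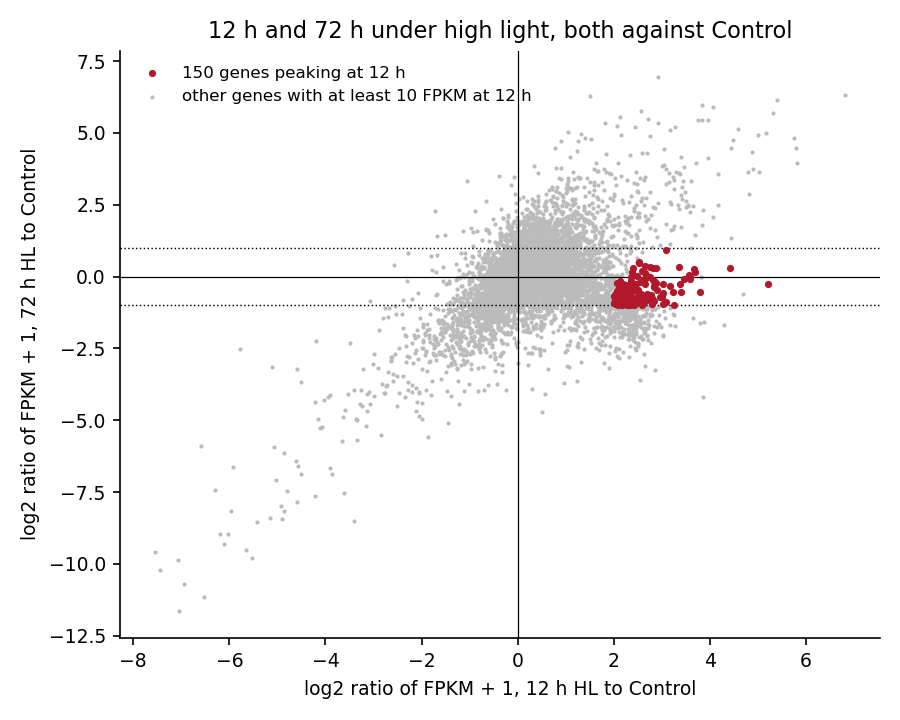
The log2 ratio of FPKM + 1 of 12 h under HL to the Control (horizontal axis) and of 72 h under HL to the Control (vertical axis), for 9178 genes with 1 point per gene, with the members in red and dotted lines at the limits of the band. The members lie right of 2.01 on the horizontal axis and mostly below 0 on the vertical axis, with a median of -0.62, and other genes with a like 12 h ratio lie above and below the band.

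The light at 72 h was compared in cells of equal time without N. The rule bounds both lights against the Control and not against each other, but the ratio of both comes from values the rule used. Nothing is therefore read from the counts and shares below. The background also differs in level. At 72 h the members had medians of 2.27 FPKM under NL and 1.87 under HL. The genes within the band had 20.5 and 21.0 FPKM. At 72 h the members were mostly lower under HL than under NL, in 108 of 150 genes, and higher in 41. Of all 6377 genes within the band 49.7% were lower and 50.1% higher. The median log2 ratio of HL to NL was -0.21 (-0.32 to -0.09 from the RSEM bounds), where all 6377 genes within the band had a median of 0.00 and all 14204 expressed genes -0.02. The HL interval lay below the NL interval in 89 members (59.3%), against 39.2% of the genes with at least 10 FPKM at 12 h, and above it in 21 (14%), against 44.5% of these genes. With 1 FPKM added, 0 of the 119 members that reached 1 FPKM under either light were 2-fold lower under HL, against 1.25% of all genes, and 2 were 2-fold higher, against 2.96%. By plain FPKM 7 of the 119 had less than 0.5 times the NL value under HL, against 2.28% of all genes, and 4 had more than 2 times that value, against 4.11%. By their labels both 72 h pools differ in light only, but how cultures of 1 light vary is not known from these values.

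The 115 genes that remained above the band at 72 h under both lights had a median of the other sign. Both sets were chosen by the 72 h values that this ratio compares, so nothing is read from the contrast. The median log2 ratio of HL to NL of the 115 genes was 0.41, with 77 genes higher and 38 lower under HL. Both sets came from the 9178 genes with at least 10 FPKM at 12 h, of which 52.3% were higher and 47.5% lower. Of all 14204 expressed genes 46.8% were higher and 52.8% lower. The median level of the 115 genes was 46.3 FPKM at 12 h, 36.1 at 72 h under NL and 54.5 at 72 h under HL, against 4.38 FPKM in the Control. In the Control both sets were low, with medians of 2.99 FPKM in the members and 4.38 FPKM in the genes that stayed high.

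**Figure D5:**
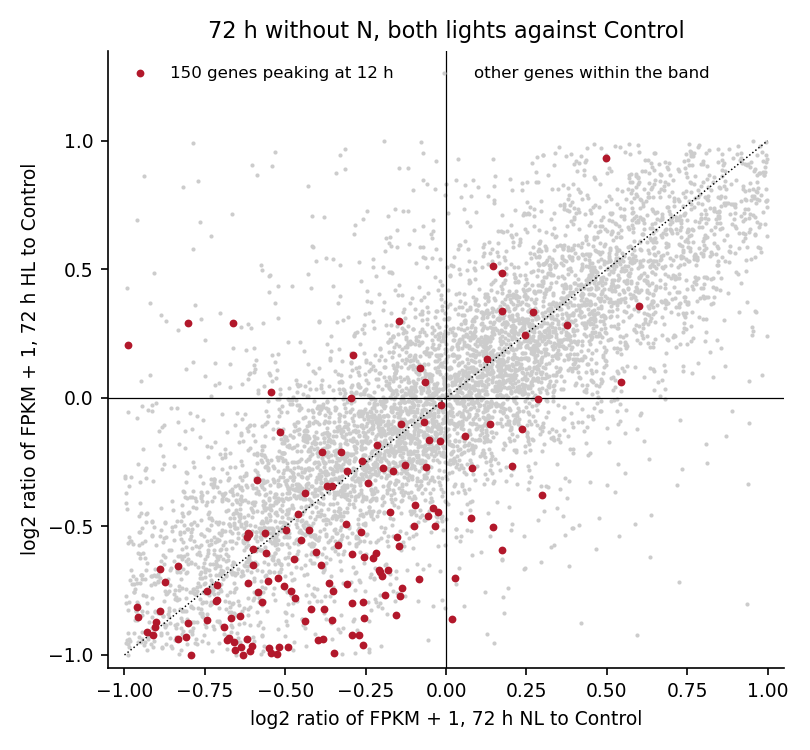
The log2 ratio of FPKM + 1 to the Control at 72 h under NL (horizontal axis) and under HL (vertical axis), with 1 point per gene, the members in red, the other genes within the band in grey and a dotted line where both ratios are equal. Of the members 119 lie at the lower left, below the Control under both lights, and 108 are lower under HL than under NL. Of all 6377 genes within the band 42.5% and 49.7% did so.

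Features that the rule did not use were near those of other genes, with more members at the extremes of length. The median length was 1800 bases in the members and 1815 in the 9178 genes with at least 10 FPKM at 12 h, and it was 1980 in the 115 genes that stayed high. Lengths ran between 189 and 13820 bases in the members. Under 500 bases were 6 members (4.00%), against 1.11% of the 9178 genes, and over 5000 bases were 9 members (6%), against 2.32%. A single transcript was annotated for 130 members (86.7%) and for 80.1% of the 9178 genes.

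The other 20 members had several transcripts, 18 of them a pair and 2 of them 3. In 16 of the 20 the same transcript was the most abundant in all 4 conditions, a share of 80.0%, against 86.2% of the 1823 genes with several transcripts among those with at least 10 FPKM at 12 h. In 14 of the 20 every transcript had a score of at least 1, some of them at levels well below 10 FPKM at 12 h, and in 5 a single transcript did. The most abundant transcript held between 48.3% and 100% of the gene's TPM at 12 h.

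The clearest change between transcripts was in the member at rank 111. Its first transcript had 10.1 FPKM in the Control, 57.8 at 12 h, 1.69 at 72 h under NL and 2.78 at 72 h under HL, and it held 62.0%, 77.7%, 13.1% and 24.7% of the gene's TPM in the same order. The second transcript had 6.16, 16.6, 11.2 and 8.48 FPKM. The gene as a whole was back in the band at 72 h, but its first transcript was far below the Control and its second above it. In the member at rank 142 a second transcript of 1160 bases had 7.65 FPKM at 12 h, was listed at 0 in the Control and at 72 h under HL, and had 0.11 FPKM at 72 h under NL.

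Gene IDs carry a running number, which is not a coordinate. Of the members 4 had another member at the next number, in 2 pairs, and 14 had one within 5 numbers, in 6 groups of at most 3 genes. Among the 150 genes that follow in the ranking by score 14 and 25 genes did. The members were therefore not more often neighbours in number than the genes ranked after them.

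None of the 31 genes that the study names by symbol, its 22 putative autophagy (ATG) genes and the 10 genes it followed by qRT-PCR with ATG8 in both, was a member. Of all 16722 genes 0.897% are members, so nothing is read from this absence. The rule left out 4 at the minimum of 10 FPKM, 8 at the band and 19 by their score, of which 13 had a score above 0. Of all genes with at least 10 FPKM at 12 h, 69.5% were within the band. Of the genes within the band 52.2% had a score above 0. The autophagy gene with the highest rank was ATG18-like (g11704), one of the WD-repeat proteins that bind phosphoinositides at the forming autophagosome in yeast, at rank 1084 with a score of 0.60. Its FPKM was 33.8 in the Control, 54.4 at 12 h, 28.9 at 72 h under NL and 35.5 at 72 h under HL, so it was highest at 12 h but by less than 2-fold. ATG3 (g4126), the conjugating enzyme that passes ATG8 to its lipid, reached 58.3 FPKM at 12 h and 33.2 in the Control, with a score of 0.60. ATG4 (g4008), the protease that trims ATG8, had 32.1 FPKM at 12 h and 14.3 in the Control, with a score of 0.55 and rank 1196. These were the ATG genes with the highest scores. Some ATG genes were highest at 12 h and others at 72 h. ATG8 (g4496) had 265 FPKM in the Control, 416 at 12 h, 827 at 72 h under NL and 962 under HL. Its score was -1.21. ATG1, ATG101, ATG14 and ATG18 were also higher at 72 h under both lights than at 12 h.

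Of the named genes only MLDP (g555), the major lipid droplet protein, had a 12 h ratio as large as the members, with 1500 FPKM at 12 h and 261 in the Control and a log2 ratio of 2.52. It remained high at 72 h, with 901 FPKM under NL and 1212 under HL, and lay outside the band. DesD5 (g4602), the desaturase of the last step to arachidonic acid, had 570 FPKM at 12 h and 179 in the Control. DesD5 was higher still at 72 h with 1316 FPKM under NL and 1178 under HL. For VTC4 and PAPase the paper reports an early transient peak by qRT-PCR under N deprivation. VTC4 (g13494) had 60.45 FPKM in the Control, 44.78 at 12 h, and 27.9 and 43.61 at 72 h under NL and HL. PAPase (g13792) had 41.98, 69.6, 128 and 123 FPKM in the same order. Neither gene was highest at 12 h. VTC4 was lower at 12 h than in the Control, so the pools do not show its 12 h rise. PAPase was higher at 12 h than in the Control and higher still at 72 h. The qRT-PCR is a separate measurement, and its levels are not compared with FPKM here. No pool lay between 12 h and 72 h, so a fall and rise of PAPase within that time was not tested.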

How the data were processed

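RNA of 32 samples in 4 conditions was sequenced by the authors as single-end and paired-end reads. Per the submitters' processing notes, RSEM 1.2.9 and Bowtie 1.0.0 were used after CASAVA 1.8 and cutadapt 1.1, and DESeq (no version) for comparisons. The paper refers to a deposited genome of the species. The assembly and annotation behind the read mapping: not given in the sources used here. Ratios of plain FPKM between both lights were added after seeing the data. From RSEM the authors deposited expected counts (estimated, not normalized), TPM and FPKM per gene and transcript, with 95% intervals, and the percent of a gene's TPM held by each transcript, with 1 pooled value per condition. They also deposited DESeq comparisons with folds and p-values, which were not used. The length of a gene is weighted over its transcripts in each condition, so it differs between conditions for genes with several transcripts.

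No test was computed, because no value per replicate was used and the rule took all 4 conditions. Log2 ratios were computed after adding 1 FPKM. As background served the genes that reached 1 FPKM in either compared condition, or 10 FPKM at 12 h. The bounds of a median ratio are medians of ratios between opposite RSEM bounds of each gene. The members, the lists and the comparisons were chosen with earlier results of these data known. Named genes are members the paper names (0), the IDs of the 2 highest scores, and the 2 members lowest at 72 h by the larger ratio of both lights. Members described by rank, and the named genes that are no members, were singled out after their values were seen. Symbols were taken from the paper. The alternatives were TPM, expected counts scaled for length and depth, median-of-ratios scaling, pseudocounts of 0.1 and 5 FPKM, the most abundant transcript, and other limits of the rule. The steps were tested on simulated counts, with peaks planted only in genes above the Control level of most members. The simulation therefore did not test the rule at the low levels of most members. Python 3.11.15 with numpy 2.4.6, pandas 2.3.3 and matplotlib 3.10.9 was used.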

Additional observations from a re-analysis of the deposited data

How the results depend on the processing

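No paired analysis was possible because the values are pooled per condition; for the same reason no replicate was left out. The count of members 2-fold higher at 12 h than in the Control, and that of 12 h intervals above the others, are set by the rule and say nothing of stability. The signs of the median score and of the median ratio of 12 h to the Control also follow from the rule. The signs of the median ratios at 72 h were the same under the 6 alternatives run for them, which changed the unit, scaling, pseudocount or transcript. These ratios too come from values the rule used. Other minimums and bands were run for membership only. The median score, 2.28, was 2.52 with TPM, 2.10 with median-of-ratios scaling, 2.58 with a pseudocount of 0.1 FPKM and 1.69 with 5 FPKM. The median log2 ratio of 12 h to the Control, 2.37, was 2.62, 2.18, 2.65 and 1.72 in the same order. At 72 h under NL the median of -0.35 was -0.17 with TPM, -0.48 with 0.1 FPKM and -0.16 with 5 FPKM, and under HL the median of -0.62 was -0.85 and -0.28 with these pseudocounts. The ratio of HL to NL, -0.21, was -0.086 with 5 FPKM. Which genes are members depended more on the settings. Of the 150, 84 were kept with a pseudocount of 0.1 FPKM, 58 with 5 FPKM, 81 with a minimum of 20 FPKM, 46 with a band of 0.5 and 73 with a band of 1.5 log2 units; at least 104 were kept with each of the other settings tried. With no band, an alternative chosen after seeing the data, 52 were kept. With gene numbers up to 5 apart, 14 members had a neighbour in place of 4.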

Other observations

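With no band at 72 h, the 150 highest scores included 52 of the members and 67 genes that were more than 1 log2 unit below the Control under both lights, and 0 genes above it under both. Their medians were 40.1 FPKM at 12 h, 1.59 at 72 h under NL and 1.51 at 72 h under HL, against 4.61 FPKM in the Control. The band thus set aside many genes with a sharper peak at 12 h. This was seen after the data were examined.

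Applied to single transcripts, the same limits gave 161 transcripts with a score of at least that of the last member, 147 of them from 144 of the members. The other 14 came from 14 genes with several transcripts, of which 6 lay outside the band as genes and 8 within it with a lower score. The highest of these 14 transcripts reached 13.5 FPKM at 12 h and 0.69 in the Control, and its values at 72 h were 0.09 FPKM in NL and 0.11 in HL. Its gene reached 19.5 FPKM at 12 h and 4.31 in the Control, with 3.20 FPKM in NL and 3.00 in HL at 72 h.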
